A study of Mus musculus with 26 samples.

Results

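Liver tumors of Fah-/- recipient mice were compared with non-tumor liver taken beside tumors of Alb-Cre:Hdac3-/- mice, by RNA-seq counts per gene. The 6 libraries were chosen by their titles, "Fah-/- tumor" replicates 1 to 3 and "adjacent non-tumor" replicates 1 to 3, out of 26 in the series. The tumor libraries are labelled with the genotype Fah-/- and an age of 12 months. The adjacent livers are labelled Alb-Cre:Hdac3-/- and 10 months, as are the 3 Hdac3-/- tumors that serve here as a second tumor group. All 9 libraries are labelled C57BL/6 and liver, with no treatment named. Fah-/- mice lack by label fumarylacetoacetate hydrolase, the last enzyme of tyrosine breakdown, and such mice are widely used as hosts for transplanted hepatocytes. The labels call them recipients without saying which cells they received or which cells formed the tumor. Alb-Cre drives recombination from the albumin promoter, active in hepatocytes, and the labels do not say which other liver cells of those mice recombined. Tumor, genotype, host and age all differ between the groups compared and cannot be told apart.

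Mature hepatocytes make plasma proteins, bile acids, cholesterol and xenobiotic-metabolising enzymes, and they divide their tasks along the lobule. Wnt signals from the central vein keep glutamine synthesis, bile acid synthesis and many cytochromes in the cells around it, while urea and glucose synthesis lie nearer the portal tract. Hepatocellular tumors commonly lose part of this program, and some re-express genes of the fetal liver. Genes that answer to p53, to the amino acid and secretory stress factor Atf4, and to the oxidant sensor Nfe2l2 are commonly used to read out stress in such tissue.

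The Fah-/- tumors had higher transcripts of replication genes, p53 targets, Atf4 targets, glutathione enzymes and fetal liver and tumor markers, and of some lipid droplet proteins. They had lower transcripts of most Wnt target and pericentral genes, cholesterol synthesis genes and major urinary proteins, and of part of the bile acid, clotting, complement and cytochrome genes. Of 13187 genes tested, 1080 were higher (8.19%) and 934 lower (7.08%) in Fah-/- tumors, 15.3% in all, with edgeR's quasi-likelihood test at a Benjamini-Hochberg adjusted p of 0.05. With library totals in place of TMM scaling 1391 were higher and 583 lower, and the all-gene median of log2 fold changes lay at 0.26 in place of 0.04. The fitted change was at least 4-fold, or 2 on the log2 scale, for 583 of the higher and 465 of the lower genes. All 3 tumor libraries lay above all 3 adjacent ones for 2163 genes (16.4%) and below them for 2276 (17.3%), whether called or not. RNA of whole tissue was measured, so fewer cells of a type and less RNA per cell cannot be told apart. In what follows a gene "rose" or "fell" only if it passed this test, levels are CPM, that is counts scaled to library size with TMM factors, and values given in turn are replicates 1, 2 and 3. Fold changes are log2 values of Fah-/- tumor over adjacent liver ± SE.

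The 6 libraries held 10098247 to 11094627 counts each. Fah-/- tumor replicate 2 stood apart from the other tumors, with correlations of log2 CPM of 0.843 and 0.865 with its own group, and it was the highest tumor library for 480 of 920 strong rises (52.2%). Fah-/- tumor replicate 3 and Hdac3-/- tumor replicate 1 correlated at 0.977, above every other pair of the 9 libraries, although their labels put them in different mice. Their counts still differed by more than sampling noise (chi-square per degree of freedom 13.42, against 40.14 or more in every pair within a group). Without this pair 1653 genes were called, and 1374 of these were among the 2014. Y-linked transcripts were present in adjacent replicate 2 and in Hdac3-/- tumor replicate 3 only, so the adjacent group holds at least 2 animals. Without adjacent replicate 2, 1022 genes were called, and without adjacent replicate 3, 719. Genes called higher numbered 323 without adjacent replicate 3, 487 without adjacent replicate 2, 669 without adjacent replicate 1 and 995 to 1045 without any other 1 of the 6 libraries. Counts of members called therefore stand beside the lists described with 1 library left out, with each library named that moved a count by more than 1.5 times, other than between 0 and 1. Every list count is to be read beside the 8.19% higher and 7.08% lower of all genes tested.

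**Figure D1:**
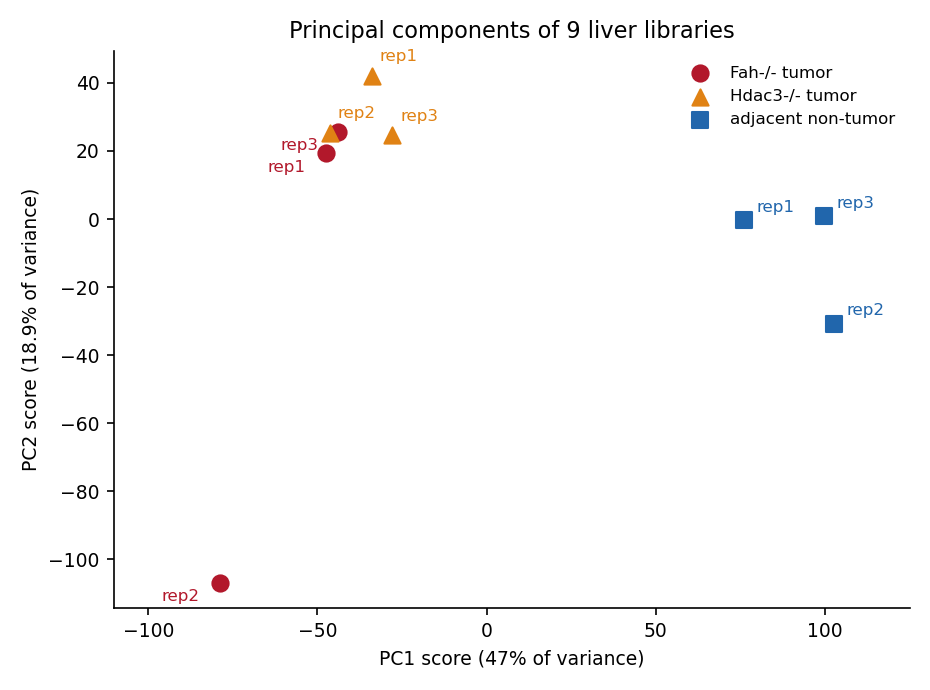
Principal components of log2 CPM over 13187 genes. The x axis is PC1 (47% of the variance) and the y axis PC2 (18.9%), and each point is 1 library with its replicate number. The 3 Fah-/- tumors lie at PC1 scores of -78.9 to -43.8 and the 3 adjacent livers at 76 to 102.6, and Fah-/- tumor replicate 2 lies apart on PC2 at -106.8.

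The gene named by the tumor group's genotype was checked first. Fah (gene ID 14085, chromosome 7, 84585159 to 84605942, GRCm38) had 493, 320.0 and 304 CPM in Fah-/- tumors, against 869, 1091 and 966 CPM in adjacent livers (log2 fold change -1.39 ± 0.34, adjusted p = 0.0239). It was lower in all 3 tumors but was not absent from any of them, and counts over a whole gene do not show a deletion that leaves a transcript. Its fall did not pass without tumor replicate 3, adjacent replicate 2 or adjacent replicate 3 (adjusted p up to 0.0691). Hdac3-/- tumors, whose label names no Fah deletion, had 329, 276 and 464 CPM of Fah. Hdac3, the histone deacetylase deleted by label in the adjacent livers, had 55.2, 42.1 and 50.6 CPM in Fah-/- tumors, against 56.6, 64.5 and 53.2 CPM in adjacent livers (log2 fold change -0.24 ± 0.22, adjusted p = 0.487). Tumor replicate 1 lay within the adjacent range, and the difference did not pass. Neither gene was at 0 in the group whose label names its deletion.

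Promoters of 4 genes that stand for the Atf4, sterol and Wnt results are shown before the values, since sequence elements named in textbooks for these pathways lie in them. The windows run from 250 bases before to 50 bases after the annotated start, from RefSeq on GRCm38.p6, and read 5' to 3' on the gene's strand. Trib3 (chr2:152344011-152344310, minus strand) and Atf3 (chr1:191183284-191183583, minus strand) hold the C/EBP-ATF response element TGATGNAA, found on the reverse strand as TTNCATCA and set in capitals. Hmgcs1 (chr13:119690101-119690400, plus strand) holds the sterol regulatory element TCACNCCAC, and Lect2 (chr13:56548489-56548788, minus strand) the TCF/LEF element ATCAAAG, both in capitals.
Trib3: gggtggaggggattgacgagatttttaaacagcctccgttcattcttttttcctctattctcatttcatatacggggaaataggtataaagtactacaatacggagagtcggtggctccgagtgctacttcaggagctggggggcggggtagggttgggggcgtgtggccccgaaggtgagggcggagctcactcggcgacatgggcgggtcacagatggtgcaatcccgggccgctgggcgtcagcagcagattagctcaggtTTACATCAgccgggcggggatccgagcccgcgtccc
Atf3: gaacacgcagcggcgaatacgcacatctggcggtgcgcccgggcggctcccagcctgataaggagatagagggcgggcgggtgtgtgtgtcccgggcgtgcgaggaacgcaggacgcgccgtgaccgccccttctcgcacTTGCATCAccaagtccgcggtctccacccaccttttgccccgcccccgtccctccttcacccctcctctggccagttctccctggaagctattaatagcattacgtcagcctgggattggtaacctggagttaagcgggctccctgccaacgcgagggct
Hmgcs1: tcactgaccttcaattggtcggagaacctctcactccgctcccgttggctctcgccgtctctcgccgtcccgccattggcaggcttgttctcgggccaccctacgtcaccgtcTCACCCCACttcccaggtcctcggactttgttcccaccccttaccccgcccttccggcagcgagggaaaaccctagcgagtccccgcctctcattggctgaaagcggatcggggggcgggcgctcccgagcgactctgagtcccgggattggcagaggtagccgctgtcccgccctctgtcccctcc
Lect2: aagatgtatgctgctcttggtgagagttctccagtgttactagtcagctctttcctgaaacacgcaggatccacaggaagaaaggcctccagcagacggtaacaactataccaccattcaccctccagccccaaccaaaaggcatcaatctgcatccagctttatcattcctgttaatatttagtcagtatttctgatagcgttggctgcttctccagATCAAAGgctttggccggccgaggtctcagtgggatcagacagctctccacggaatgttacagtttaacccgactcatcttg
Both strands were searched, and the 3 motifs do not overlap in these windows. TGATGNAA was in the promoters of 4.51% of 27025 genes and of 6 of 20 tested genes of the Atf4 list, 3 that rose (Trib3, Atf3, Fgf21) and 3 that did not pass (Asns, Chac1, Herpud1). The sterol element was in 1.44% of all promoters and in 1 of 16 tested cholesterol genes with a promoter in the table. ATCAAAG was in 4.29% of all promoters and in 3 of 12 tested Wnt and pericentral genes with one, Lect2, Slc1a2 and Sp5. These 3 fell, but so did 10 of the 12, with or without the element. A match describes the letters of the window and is not a binding site.

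Replication genes were higher in the tumors. On a list of cell cycle and DNA replication genes 18 of 30 tested members rose and 0 fell, with a median log2 fold change of 2.42 beside 0.04 over all genes tested. The count of rises was 3 without adjacent replicate 3, 6 without adjacent replicate 2, 7 without adjacent replicate 1, 11 without tumor replicate 3 and 14 to 20 without any other 1 of the 6 libraries. Mcm2, a subunit of the helicase that opens DNA for replication, had 18.5, 52.1 and 48.4 CPM in Fah-/- tumors, against 4.5, 2.51 and 4.55 CPM in adjacent livers (log2 fold change 3.36 ± 0.57, adjusted p = 0.00685). Every tumor library was far above every adjacent one, with tumor replicate 1 the lowest tumor. Cdc20, which activates the complex that ends mitosis, had 9.32, 12.5 and 13.9 CPM in Fah-/- tumors, against 0.294, 1.25 and 0.724 CPM in adjacent livers (log2 fold change 3.97 ± 0.68, adjusted p = 0.00711). Its 3 tumor values lay close together, and both calls held without any 1 of the 6 libraries. Mcm6, another helicase subunit, had 12.3, 27.2 and 41.2 CPM in Fah-/- tumors, against 1.76, 1.82 and 1.55 CPM in adjacent livers (log2 fold change 3.96 ± 0.74, adjusted p = 0.00986), a rise that did not pass without adjacent replicate 3 (adjusted p up to 0.0515). Foxm1, a transcription factor of mitotic genes, had 1.82, 5.91 and 9.04 CPM in Fah-/- tumors, against 1.18, 0.228 and 0.517 CPM in adjacent livers (log2 fold change 3.09 ± 0.81, adjusted p = 0.0315), a rise that did not pass without tumor replicate 3, adjacent replicate 2 or adjacent replicate 3 (adjusted p up to 0.116). Tumor replicate 1 was again the lowest tumor in both genes. Mki67, the antigen behind the Ki-67 proliferation stain, had 0.811, 6.09 and 12 CPM in Fah-/- tumors, against 0.979, 0.228 and 1.66 CPM in adjacent livers (log2 fold change 2.70 ± 0.94, adjusted p = 0.0819). Its lowest tumor, replicate 1, lay within the adjacent range, and the difference did not pass. Ccnd1, the G1 cyclin, had 63.8, 11.2 and 19 CPM in Fah-/- tumors, against 163, 22.8 and 62.3 CPM in adjacent livers (log2 fold change -1.40 ± 0.75, adjusted p = 0.228). The groups overlapped, with adjacent replicate 1 highest. Myc, a growth-promoting transcription factor, had 61.8, 79.8 and 69.5 CPM in Fah-/- tumors, against 34.4, 35 and 8.28 CPM in adjacent livers (log2 fold change 1.44 ± 0.45, adjusted p = 0.0598). All tumors were above all adjacent livers, and the test did not pass.

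Fetal liver and tumor markers rose for 10 of 17 tested members and fell for 0 (median log2 fold change 3.31). The count of rises was 4 without adjacent replicate 3, 6 without adjacent replicate 2 and 7 to 10 without any other 1 of the 6 libraries. Cd24a, a surface protein of progenitor and tumor cells, had 122, 131 and 90.1 CPM in Fah-/- tumors, against 11.3, 7.3 and 6.31 CPM in adjacent livers (log2 fold change 3.78 ± 0.32, adjusted p = 0.00148). Lgals1, a secreted galectin, had 104, 167 and 133 CPM in Fah-/- tumors, against 21.3, 25.7 and 43.2 CPM in adjacent livers (log2 fold change 2.16 ± 0.32, adjusted p = 0.00469). For both genes the tumor values lay close together, above the adjacent range, and the calls held without any 1 of the 6 libraries. Gpc3, the glypican used as a hepatocellular carcinoma marker, had 16.4, 570.1 and 68.5 CPM in Fah-/- tumors, against 0.294, 0.342 and 0.931 CPM in adjacent livers (log2 fold change 8.67 ± 1.52, adjusted p = 0.00771). All tumors were above all adjacent livers, with tumor replicate 2 far above the other tumors. Afp, the fetal counterpart of albumin, had 23.7, 2478 and 76.3 CPM in Fah-/- tumors, against 1.47, 0.798 and 0.931 CPM in adjacent livers (log2 fold change 9.63 ± 2.28, adjusted p = 0.0224). The same library led, and the log2 fold change without it was 5.53, adjusted p = 0.0296. The rise of Afp did not pass without adjacent replicate 1, adjacent replicate 2 or adjacent replicate 3 (adjusted p up to 0.0948). Scd2, a fatty acid desaturase, had 32.8, 394 and 215 CPM in Fah-/- tumors, against 36.7, 15.7 and 32.2 CPM in adjacent livers (log2 fold change 2.92 ± 0.75, adjusted p = 0.0302). Tumor replicate 1 lay inside the adjacent range, and the rise did not pass without tumor replicate 2, adjacent replicate 1, adjacent replicate 2 or adjacent replicate 3 (adjusted p up to 0.0996).

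Imprinted growth genes, expressed from 1 parental copy and active in fetal liver, gave 2 rises and 1 fall among 9 tested (median log2 fold change 0.09). Rises numbered 0 without adjacent replicate 1, adjacent replicate 2 or adjacent replicate 3 and 2 without any other 1 of the 6 libraries, the count of falls was 0 without tumor replicate 1, tumor replicate 3, adjacent replicate 1 or adjacent replicate 3, 2 without tumor replicate 2 and 1 without any other 1 of the 6 libraries, and the median was -1.68 to 0.32. Grb10, an adaptor that restrains insulin signalling, had 7.3, 267 and 30.1 CPM in Fah-/- tumors, against 3.13, 3.65 and 2.79 CPM in adjacent livers (log2 fold change 4.99 ± 1.14, adjusted p = 0.0199). The rise did not pass without adjacent replicate 1, adjacent replicate 2 or adjacent replicate 3 (adjusted p up to 0.0851), and without tumor replicate 2 its log2 fold change was 2.55, adjusted p = 0.0191. H19, a growth-restricting RNA, had 3.14, 4.0 and 4.64 CPM in Fah-/- tumors, against 35.1, 1.03 and 159.9 CPM in adjacent livers (log2 fold change -4.05 ± 1.47, adjusted p = 0.0908). The tumors lay close together between adjacent replicate 2 and the other adjacent livers, and the difference did not pass. Igf2, its neighbour and a fetal growth factor, had 0.101, 2.36 and 1.22 CPM in Fah-/- tumors, against 3.62, 0.912 and 8.38 CPM in adjacent livers (log2 fold change -1.79 ± 1.22, adjusted p = 0.343), and the groups overlapped. So Afp and Gpc3 were higher in each tumor while H19 and Igf2 were not.

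The largest fitted rises were mostly highest in 1 tumor. Of the 12 largest, 11 were highest in Fah-/- tumor replicate 2 and 1, Bmp8b, in replicate 1. Without tumor replicate 2 all 12 were still called, but without adjacent replicate 1 only 6 were, without adjacent replicate 2 only 3 and without adjacent replicate 3 only 2. Adm2, a vasodilator peptide of the calcitonin family, had 15.2, 24.2 and 2.85 CPM in Fah-/- tumors, against 0, 0 and 0 CPM in adjacent livers. It was at least 129.9-fold higher against a floor of 3 counts over the adjacent group (adjusted p = 0.00849), or at least 79.8-fold without tumor replicate 2, and its call held without any 1 of the 6 libraries. Igfbp6, a binding protein that prefers Igf2, had 1.82, 3594 and 261 CPM in Fah-/- tumors, against 0.783, 0.912 and 0.621 CPM in adjacent livers (log2 fold change 10.68 ± 2.28, adjusted p = 0.0158). Tumor replicates 2 and 3 were far above the adjacent livers and replicate 1 was near them, and the rise did not pass without adjacent replicate 1, adjacent replicate 2 or adjacent replicate 3 (adjusted p up to 0.0755). Bmp8b, a signalling protein of the BMP family, had 659, 1.91 and 15.1 CPM in Fah-/- tumors, against 0.588, 0.114 and 0.621 CPM in adjacent livers (log2 fold change 8.93 ± 2.45, adjusted p = 0.0382). Without tumor replicate 1 its log2 fold change was 4.21, adjusted p = 0.105, and the rise did not pass without tumor replicate 1, adjacent replicate 1, adjacent replicate 2 or adjacent replicate 3 (adjusted p up to 0.128). Tff3, a mucosal trefoil peptide, had 4.66, 244 and 28.1 CPM in Fah-/- tumors, against 0.392, 1.03 and 0.31 CPM in adjacent livers (log2 fold change 7.32 ± 1.43, adjusted p = 0.0116). Without tumor replicate 2 its log2 fold change was 4.83, adjusted p = 0.00848, and the rise did not pass without adjacent replicate 3 (adjusted p up to 0.0608). Krt20, a keratin of intestinal epithelium, had 0.912, 71.1 and 7.98 CPM in Fah-/- tumors, against 0, 0 and 0 CPM in adjacent livers, at least 256-fold higher against the same floor (adjusted p = 0.0268), and at least 46.1-fold higher without tumor replicate 2. Tumor replicate 2 led here too, and the rise did not pass without adjacent replicate 1, adjacent replicate 2 or adjacent replicate 3 (adjusted p up to 0.0817).

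Biliary and progenitor markers rose for 1 of 13 and fell for 1 (median log2 fold change 0.38). Each is 7.69% of the list, near the 8.19% higher and 7.08% lower of all genes tested. Rises numbered 0 without adjacent replicate 2 or adjacent replicate 3, 2 without tumor replicate 1 and 1 without any other 1 of the 6 libraries, and the count of falls was 0 without tumor replicate 1 or adjacent replicate 3, 2 without tumor replicate 2 and 1 without any other 1 of the 6 libraries. Without tumor replicate 2 the median was -0.87. Krt19, the bile duct keratin, had 0.507, 105 and 4.23 CPM in Fah-/- tumors, against 14.8, 16.5 and 3.83 CPM in adjacent livers (log2 fold change 1.65 ± 1.31, adjusted p = 0.416). It was above the adjacent range in tumor replicate 2 only, and without that library its log2 fold change was -2.28, adjusted p = 0.103. Epcam, an adhesion protein of duct and progenitor cells, had 0.203, 3.45 and 1.14 CPM in Fah-/- tumors, against 2.15, 2.85 and 2.07 CPM in adjacent livers (log2 fold change -0.55 ± 0.73, adjusted p = 0.642). Sox9, their transcription factor, had 9.43, 18.8 and 13.6 CPM in Fah-/- tumors, against 8.03, 8.21 and 6.0 CPM in adjacent livers (log2 fold change 0.91 ± 0.49, adjusted p = 0.228). Epcam overlapped between groups, and Sox9 was above the adjacent range in each tumor without passing.

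Targets of p53, the transcription factor that answers to DNA damage, rose for 11 of 18 members and fell for 0 (median log2 fold change 1.49). The count of rises was 5 without adjacent replicate 3, 7 without adjacent replicate 2 and 8 to 10 without any other 1 of the 6 libraries. Cdkn1a, the p21 inhibitor of cyclin-dependent kinases, had 269, 79.4 and 102 CPM in Fah-/- tumors, against 8.72, 1.25 and 1.86 CPM in adjacent livers (log2 fold change 5.24 ± 0.84, adjusted p = 0.00554). Gdf15, a stress cytokine that curbs appetite, had 52.7, 42.6 and 42.7 CPM in Fah-/- tumors, against 4.99, 5.36 and 5.9 CPM in adjacent livers (log2 fold change 3.08 ± 0.28, adjusted p = 0.00148). Both groups were narrow for Gdf15, and for both genes every tumor was far above every adjacent liver. Btg2, an antiproliferative gene, had 237, 157 and 175 CPM in Fah-/- tumors, against 18.4, 6.73 and 14.7 CPM in adjacent livers (log2 fold change 3.83 ± 0.46, adjusted p = 0.00226). Phlda3, an inhibitor of Akt, had 19.8, 11.4 and 14.2 CPM in Fah-/- tumors, against 0.979, 1.48 and 0.931 CPM in adjacent livers (log2 fold change 3.73 ± 0.40, adjusted p = 0.00183). Calls of these 4 genes held without any 1 of the 6 libraries. Mdm2, the ligase that degrades p53, rose less, with 34.9, 45.4 and 36.1 CPM in Fah-/- tumors, against 20.3, 21.4 and 26 CPM in adjacent livers (log2 fold change 0.78 ± 0.21, adjusted p = 0.038), and the rise did not pass without tumor replicate 2, tumor replicate 3, adjacent replicate 1, adjacent replicate 2 or adjacent replicate 3 (adjusted p up to 0.121). Bbc3, the cell death gene also called Puma, had 13, 18.5 and 15 CPM in Fah-/- tumors, against 8.52, 19 and 13 CPM in adjacent livers (log2 fold change 0.20 ± 0.31, adjusted p = 0.703). Bax, which permeabilises mitochondria, had 31.7, 47.8 and 26.2 CPM in Fah-/- tumors, against 17.5, 24.6 and 15.5 CPM in adjacent livers (log2 fold change 0.87 ± 0.28, adjusted p = 0.0662). Bbc3 overlapped between groups, and Bax was above the adjacent range in each tumor without passing. Cdkn1a, which halts the cell cycle, and Mcm2, which serves it, were thus higher in the same 3 tumors, and whole tissue does not show whether in the same cells.

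Atf4 and secretory stress genes gave 12 rises and 0 falls among 20 tested (median log2 fold change 1.66). The count of rises was 5 without adjacent replicate 3 and 8 to 10 without any other 1 of the 6 libraries. Atf4, the factor itself, had 173, 483 and 207 CPM in Fah-/- tumors, against 83.9, 131 and 102 CPM in adjacent livers (log2 fold change 1.44 ± 0.41, adjusted p = 0.0409). The rise did not pass without tumor replicate 2, adjacent replicate 1, adjacent replicate 2 or adjacent replicate 3 (adjusted p up to 0.127), and without tumor replicate 2, its highest library, its log2 fold change was 0.85, adjusted p = 0.0797. Trib3, a pseudokinase that dampens insulin signalling and the first of the promoters printed, had 215, 237 and 139 CPM in Fah-/- tumors, against 17.7, 12.4 and 5.9 CPM in adjacent livers (log2 fold change 4.03 ± 0.48, adjusted p = 0.00226). Ddit3, the stress factor also called Chop, had 27.9, 21.7 and 42.8 CPM in Fah-/- tumors, against 3.04, 4.11 and 5.79 CPM in adjacent livers (log2 fold change 2.83 ± 0.39, adjusted p = 0.00362). For Trib3 and Ddit3 the ranges were well apart, and the calls held without any 1 of the 6 libraries. Psat1, an enzyme of serine synthesis, had 34.8, 199 and 44.3 CPM in Fah-/- tumors, against 1.08, 0.684 and 0.31 CPM in adjacent livers (log2 fold change 7.03 ± 0.86, adjusted p = 0.00246). Mthfd2, of mitochondrial folate metabolism, had 14.7, 67.8 and 14 CPM in Fah-/- tumors, against 1.18, 0.684 and 0.724 CPM in adjacent livers (log2 fold change 5.20 ± 0.70, adjusted p = 0.00353). In both, tumor replicate 2 was highest, and each tumor was more than 10-fold above each adjacent liver. Atf3, an immediate stress factor whose promoter is the second printed, had 67.6, 17.9 and 33.1 CPM in Fah-/- tumors, against 5.97, 1.25 and 3.83 CPM in adjacent livers (log2 fold change 3.41 ± 0.65, adjusted p = 0.0104), a rise that did not pass without adjacent replicate 3 (adjusted p up to 0.0515). Fgf21, a fasting and stress hormone, had 107, 73.5 and 39.9 CPM in Fah-/- tumors, against 13.8, 0.798 and 0.931 CPM in adjacent livers (log2 fold change 3.81 ± 0.99, adjusted p = 0.0307), a rise that did not pass without tumor replicate 1, adjacent replicate 2 or adjacent replicate 3 (adjusted p up to 0.0926). Adjacent replicate 1 was the highest adjacent library for both, and without it the log2 fold change of Fgf21 was 6.36, adjusted p = 0.00453. Asns, the asparagine synthetase, had 115, 370.3 and 65.4 CPM in Fah-/- tumors, against 2.25, 77.4 and 0.414 CPM in adjacent livers (log2 fold change 2.78 ± 1.41, adjusted p = 0.203). Adjacent replicate 2 was above tumor replicate 3, and the difference did not pass. In the secretory branch Hspa5, the main chaperone of the endoplasmic reticulum, had 634, 1272 and 927 CPM in Fah-/- tumors, against 243, 351 and 464 CPM in adjacent livers (log2 fold change 1.42 ± 0.42, adjusted p = 0.0486), a rise that did not pass without tumor replicate 2, tumor replicate 3, adjacent replicate 1, adjacent replicate 2 or adjacent replicate 3 (adjusted p up to 0.141). Hsp90b1, Xbp1 and Herpud1 of this branch did not pass. Sesn2 is counted among both the p53 and the Atf4 targets.

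Glutathione transferases and Nfe2l2 targets rose for 11 of 25 and fell for 1, Gsta3 (median log2 fold change 1.26). The count of rises was 7 without adjacent replicate 3 and 9 to 11 without any other 1 of the 6 libraries, and the fall of Gsta3 did not pass without tumor replicate 1, tumor replicate 3, adjacent replicate 2 or adjacent replicate 3 (adjusted p up to 0.0799). Gclc, the subunit that limits glutathione synthesis, had 738, 2663 and 1654 CPM in Fah-/- tumors, against 127, 187 and 138 CPM in adjacent livers (log2 fold change 3.48 ± 0.49, adjusted p = 0.00401). Slc7a11, which imports the cystine needed for it, had 245, 473 and 341 CPM in Fah-/- tumors, against 68.7, 97.2 and 124 CPM in adjacent livers (log2 fold change 1.87 ± 0.37, adjusted p = 0.0123). Srxn1, which repairs oxidised peroxiredoxins, had 350.2, 317 and 762 CPM in Fah-/- tumors, against 49.2, 46.4 and 78.6 CPM in adjacent livers (log2 fold change 3.04 ± 0.47, adjusted p = 0.00507). Every tumor was above every adjacent liver in these 3 genes, and their calls held without any 1 of the 6 libraries. Gsta1, a transferase that conjugates glutathione, had 165, 316 and 324 CPM in Fah-/- tumors, against 7.25, 9.81 and 16.8 CPM in adjacent livers (log2 fold change 4.57 ± 0.43, adjusted p = 0.00148). Its near-identical copy Gsta2 rose as well, so how reads were split between them is uncertain. Cbr3, a carbonyl reductase, had 69.2, 409.6 and 138 CPM in Fah-/- tumors, against 4.99, 2.51 and 1.03 CPM in adjacent livers (log2 fold change 6.16 ± 0.82, adjusted p = 0.00344). Abcc4, an exporter of bile acids and drugs, had 61.4, 390.0 and 185 CPM in Fah-/- tumors, against 21.1, 6.84 and 21.3 CPM in adjacent livers (log2 fold change 3.69 ± 0.72, adjusted p = 0.0113). Tumor replicate 2 was highest for Gclc, Slc7a11, Cbr3 and Abcc4. Nqo1, the quinone reductase often used as an Nfe2l2 reporter, had 28.5, 341 and 86 CPM in Fah-/- tumors, against 20.8, 4.45 and 25.9 CPM in adjacent livers (log2 fold change 3.15 ± 0.90, adjusted p = 0.0426). The rise did not pass without tumor replicate 2, adjacent replicate 1, adjacent replicate 2 or adjacent replicate 3 (adjusted p up to 0.113), and without tumor replicate 2 its log2 fold change was 1.75, adjusted p = 0.113. Gstp1, a transferase higher in male than in female mouse liver, had 3025, 2064 and 2309 CPM in Fah-/- tumors, against 600.4, 6142 and 362 CPM in adjacent livers (log2 fold change 0.06 ± 0.89, adjusted p = 0.972). Adjacent replicate 2, the library with Y-linked transcripts, was above every tumor, and the other adjacent livers were below every tumor.

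**Figure D2:**
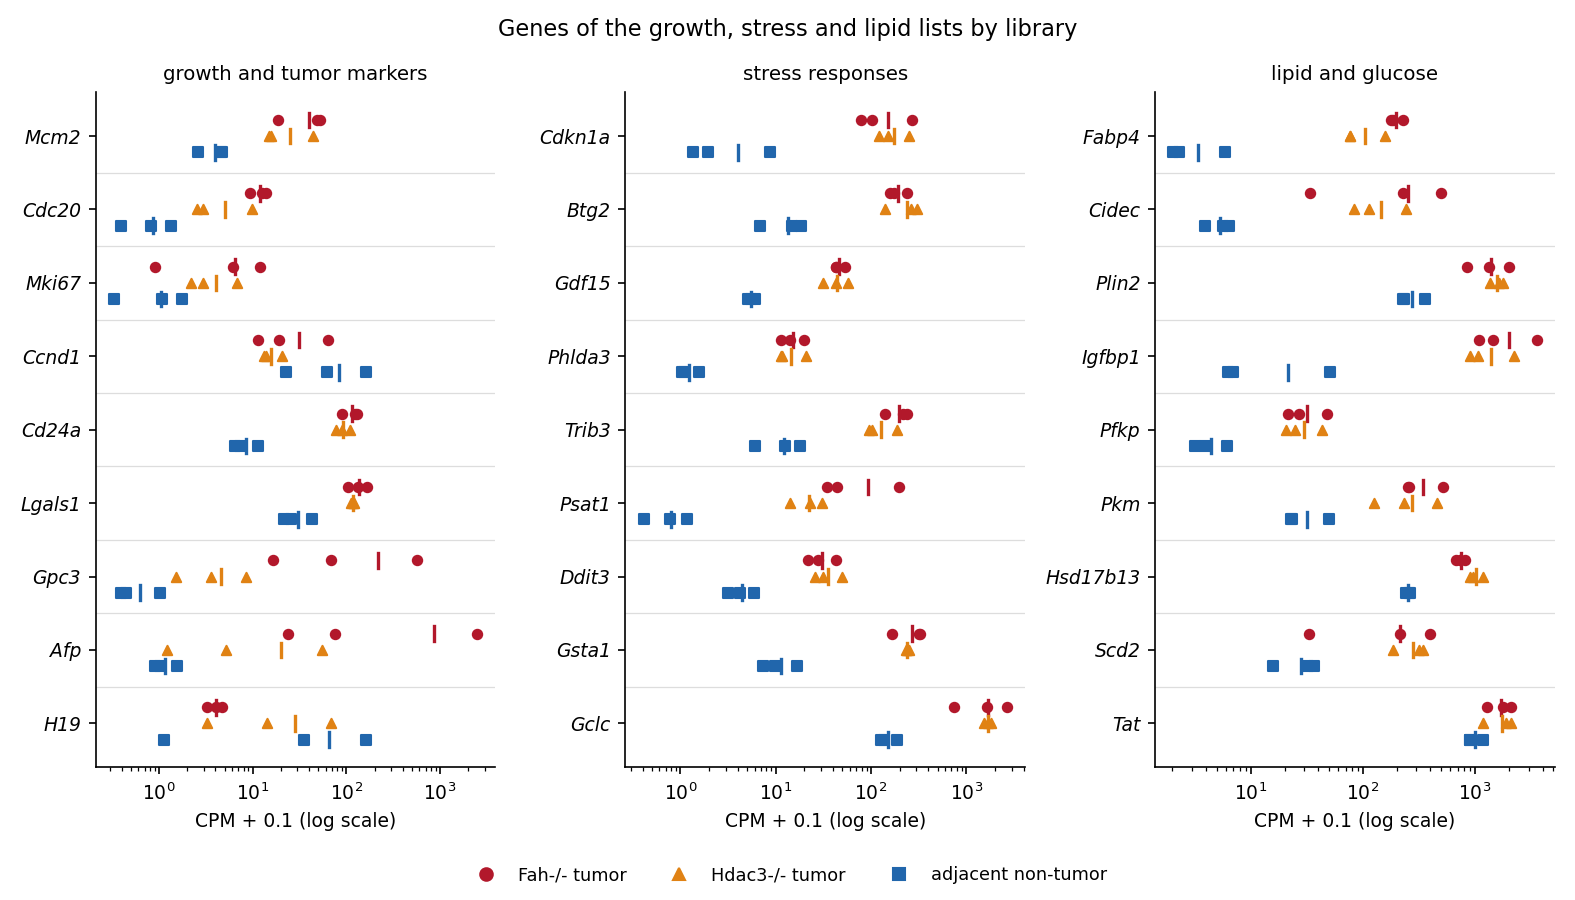
Levels of 27 genes of the growth, stress, lipid and glucose lists in 9 libraries. The x axis is CPM with 0.1 added on a log scale, each point is 1 library and each bar a group mean (n = 3 each), with Fah-/- tumors above Hdac3-/- tumors and adjacent livers. Cdkn1a, Gdf15, Trib3, Gsta1 and Fabp4 show tumors separated from adjacent livers, while Ccnd1, Mki67 and H19 overlap.

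Of 21 tested genes of lipid droplets and fat uptake 5 rose and 1 fell, and the count of rises was 3 without adjacent replicate 1 or adjacent replicate 3 and 4 to 6 without any other 1 of the 6 libraries. Fabp4, a fatty acid carrier of fat cells, macrophages and endothelium, had 176, 228 and 184 CPM in Fah-/- tumors, against 5.78, 1.94 and 2.17 CPM in adjacent livers (log2 fold change 5.88 ± 0.55, adjusted p = 0.00148). Each tumor was far above each adjacent liver. Adipoq, Plin1 and Retn of fat cells were at 0 in all 3 tumors, and the 9 fat cell and mesothelial genes seen summed to 0.364 to 4.72 CPM there. Which cells held the Fabp4 transcripts was not tested. Cidec, which fuses lipid droplets, had 501, 33.6 and 228 CPM in Fah-/- tumors, against 6.27, 5.59 and 3.83 CPM in adjacent livers (log2 fold change 5.60 ± 0.92, adjusted p = 0.00624). Plin2, the droplet coat protein, had 1996, 852 and 1320 CPM in Fah-/- tumors, against 357, 233 and 227 CPM in adjacent livers (log2 fold change 2.35 ± 0.41, adjusted p = 0.0075). Tumor replicate 1 was highest and replicate 2 lowest of the tumors in both, and all 3 calls held without any 1 of the 6 libraries. Cideb, a relative of Cidec that serves lipoprotein assembly, was the member that fell, with 68.6, 64.5 and 58.5 CPM in Fah-/- tumors, against 241, 291 and 276 CPM in adjacent livers (log2 fold change -2.07 ± 0.38, adjusted p = 0.0086). Lipogenesis genes showed 1 rise, of Scd2, and 0 falls among 22 (median log2 fold change -0.13), with 4 members at an unadjusted p under 0.05. DESeq2 called 1 of them higher and 2 lower.

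Genes of glucose use changed in part. Igfbp1, a secreted binding protein that insulin represses, had 1458, 3536 and 1080 CPM in Fah-/- tumors, against 50.4, 6.84 and 6.21 CPM in adjacent livers (log2 fold change 6.58 ± 1.05, adjusted p = 0.00554), with every tumor far above every adjacent liver. Glycolysis and hypoxia genes rose for 6 of 21 and fell for 2, and the count of rises was 2 without adjacent replicate 3 and 4 to 8 without any other 1 of the 6 libraries. Falls numbered 0 without adjacent replicate 3, 1 without adjacent replicate 1 or adjacent replicate 2 and 2 without any other 1 of the 6 libraries. Pkm, the pyruvate kinase of tissues other than mature liver, had 251, 521 and 259 CPM in Fah-/- tumors, against 49.6, 23.1 and 22.8 CPM in adjacent livers (log2 fold change 3.43 ± 0.58, adjusted p = 0.00671). Pfkp, the platelet form of phosphofructokinase, had 47.5, 26.9 and 21.2 CPM in Fah-/- tumors, against 6.07, 3.08 and 3.83 CPM in adjacent livers (log2 fold change 2.87 ± 0.44, adjusted p = 0.0049). Both calls held without any 1 of the 6 libraries, and neither gene overlapped between groups. Hk2, the hexokinase of tissues other than mature liver, had 36.7, 12.3 and 15.2 CPM in Fah-/- tumors, against 4.9, 1.48 and 3.41 CPM in adjacent livers (log2 fold change 2.70 ± 0.55, adjusted p = 0.0135), a rise that did not pass without adjacent replicate 3 (adjusted p up to 0.0597). Oxidative phosphorylation genes had 0 rises and 3 falls among 26 (11.5%, beside 7.08% of all genes tested). The count of falls was 1 without tumor replicate 2, adjacent replicate 2 or adjacent replicate 3, 7 without tumor replicate 3 and 2 to 4 without any other 1 of the 6 libraries. Ndufs4, a complex I subunit, had 14.5, 12 and 18.5 CPM in Fah-/- tumors, against 28.9, 35.7 and 48.1 CPM in adjacent livers (log2 fold change -1.32 ± 0.26, adjusted p = 0.0122), with all tumors below all adjacent livers.

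Wnt target and pericentral genes were low throughout the tumors. Of 19 tested members 15 fell and 0 rose, with a median log2 fold change of -4.17, and the count of falls was 11 to 15 without any 1 of the 6 libraries. Axin2, a feedback inhibitor used as a general reporter of Wnt signalling, had 1.11, 1.0 and 0.326 CPM in Fah-/- tumors, against 10.8, 17.6 and 12.3 CPM in adjacent livers (log2 fold change -4.05 ± 0.49, adjusted p = 0.00232). Nkd1, another feedback inhibitor, had 0.608, 0.455 and 0.733 CPM in Fah-/- tumors, against 12.2, 6.84 and 9.31 CPM in adjacent livers (log2 fold change -3.95 ± 0.44, adjusted p = 0.00216). Tbx3, a transcription factor and Wnt target, had 2.43, 1.64 and 1.06 CPM in Fah-/- tumors, against 31.4, 38.7 and 69 CPM in adjacent livers (log2 fold change -4.76 ± 0.55, adjusted p = 0.00226). None of the tumor libraries came near the adjacent range in these 3 genes. Sp5, a Wnt-induced repressor, was at 0 in all 3 tumors against 1.86, 8.55 and 3.62 CPM in adjacent livers (adjusted p = 0.0086). Lect2, a secreted protein of hepatocytes whose promoter is printed above, had 0.304, 1.27 and 0.733 CPM in Fah-/- tumors, against 95.8, 65.9 and 156 CPM in adjacent livers (log2 fold change -7.07 ± 0.76, adjusted p = 0.00183). Gulo, the last enzyme of vitamin C synthesis, had 25.8, 11.2 and 4.23 CPM in Fah-/- tumors, against 739, 827 and 677 CPM in adjacent livers (log2 fold change -5.77 ± 0.64, adjusted p = 0.00199). Both were reduced to a small share of the adjacent level in each tumor. Cyp2e1, the pericentral cytochrome that oxidises ethanol, had 22.2, 244 and 58.9 CPM in Fah-/- tumors, against 10866, 15919 and 7241 CPM in adjacent livers (log2 fold change -6.71 ± 1.34, adjusted p = 0.0123). Slc1a2, the glutamate importer of pericentral cells, had 0.709, 7.45 and 2.52 CPM in Fah-/- tumors, against 249.6, 150.1 and 152 CPM in adjacent livers (log2 fold change -5.68 ± 0.86, adjusted p = 0.00476). Calls of these 8 genes held without any 1 of the 6 libraries. Glul, the glutamine synthetase of the last cells before the central vein, had 239, 315 and 291 CPM in Fah-/- tumors, against 1321, 1373 and 1496 CPM in adjacent livers (log2 fold change -2.31 ± 0.48, adjusted p = 0.0146). The groups were far apart, but the fall did not pass without adjacent replicate 3 (adjusted p up to 0.0504). Notum, a secreted Wnt inhibitor, had 27, 0.636 and 3.5 CPM in Fah-/- tumors, against 61.5, 69.6 and 43.7 CPM in adjacent livers (log2 fold change -2.50 ± 0.96, adjusted p = 0.106). It was lower in each tumor without passing. Rnf43, Znrf3 and Aldh1b1 did not pass either.

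Rspo3, the ligand by which central vein endothelium strengthens Wnt signals, had 0.101, 0.273 and 0.407 CPM in Fah-/- tumors, against 2.06, 0.798 and 2.59 CPM in adjacent livers (log2 fold change -2.72 ± 0.76, adjusted p = 0.0403), a fall that did not pass with any 1 of the 6 libraries left out (adjusted p up to 0.139). Its 3 tumor values and 3 adjacent values did not overlap, at levels near 1 CPM. Of 15 periportal genes 3 were higher (20%, beside 8.19% of all genes tested) and 1 lower (6.67%, beside 7.08%), with a median log2 fold change of -0.32. The count of rises was 1 without adjacent replicate 1, adjacent replicate 2 or adjacent replicate 3 and 2 without any other 1 of the 6 libraries. Falls numbered 0 without tumor replicate 1, tumor replicate 2, adjacent replicate 2 or adjacent replicate 3, 3 without tumor replicate 3 and 1 without any other 1 of the 6 libraries, and the median with 1 library left out was -1.02 to 0.26. Hsd17b13, a lipid droplet enzyme, had 738, 677 and 815 CPM in Fah-/- tumors, against 241, 257 and 262 CPM in adjacent livers (log2 fold change 1.55 ± 0.28, adjusted p = 0.0086), with narrow ranges in both groups. Hal, the histidine ammonia-lyase, had 67, 45.3 and 105 CPM in Fah-/- tumors, against 161, 254 and 271 CPM in adjacent livers (log2 fold change -1.66 ± 0.41, adjusted p = 0.0253), a fall that did not pass without tumor replicate 1, tumor replicate 2, adjacent replicate 2 or adjacent replicate 3 (adjusted p up to 0.0849). The difference between the pericentral and the periportal list was not tested.

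Transcription factors of the hepatocyte gave 0 rises and 3 falls among 20, with Tbx3 above among the falls, and the count of falls was 2 to 3 without any 1 of the 6 libraries. Nr1i3, the xenobiotic receptor CAR, had 17.5, 1.64 and 3.58 CPM in Fah-/- tumors, against 379, 207 and 231 CPM in adjacent livers (log2 fold change -5.17 ± 0.88, adjusted p = 0.00685), and its call held without any 1 of the 6 libraries. Foxa2, a pioneer factor of liver genes, had 22.1, 27.4 and 21.6 CPM in Fah-/- tumors, against 42, 63.3 and 44.5 CPM in adjacent livers (log2 fold change -1.08 ± 0.30, adjusted p = 0.0392), a fall that did not pass without tumor replicate 1, tumor replicate 3, adjacent replicate 1, adjacent replicate 2 or adjacent replicate 3 (adjusted p up to 0.119). Hnf4a, a regulator of hepatocyte identity, had 719.7, 495 and 433 CPM in Fah-/- tumors, against 613, 697 and 563 CPM in adjacent livers (log2 fold change -0.18 ± 0.31, adjusted p = 0.713), and the groups overlapped.

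Cholesterol synthesis genes fell for 16 of 24 tested members and rose for 0 (median log2 fold change -2.33), and the count of falls was 8 without adjacent replicate 3 and 13 to 17 without any other 1 of the 6 libraries. Early in the pathway, Hmgcs1, which makes HMG-CoA and whose promoter is printed above, had 47.4, 33.8 and 148 CPM in Fah-/- tumors, against 286, 345 and 1514 CPM in adjacent livers (log2 fold change -3.23 ± 0.77, adjusted p = 0.0233). Adjacent replicate 3 was the highest library, and without it the log2 fold change was -2.05, adjusted p = 0.0761. The fall of Hmgcs1 did not pass without tumor replicate 1 or adjacent replicate 3 (adjusted p up to 0.0761). Mvk, the mevalonate kinase, had 15.3, 8.36 and 10.6 CPM in Fah-/- tumors, against 36.7, 65 and 65.8 CPM in adjacent livers (log2 fold change -2.29 ± 0.37, adjusted p = 0.00554). In the middle, Fdft1, the squalene synthase, had 95.5, 24 and 72.4 CPM in Fah-/- tumors, against 233, 439.6 and 566 CPM in adjacent livers (log2 fold change -2.69 ± 0.52, adjusted p = 0.0109). Tumor replicate 2 was the lowest library for Mvk and Fdft1. Late in the pathway, Tm7sf2, a sterol reductase, had 19.6, 2.91 and 10.9 CPM in Fah-/- tumors, against 111, 252 and 177 CPM in adjacent livers (log2 fold change -4.02 ± 0.65, adjusted p = 0.00572). Ebp, a sterol isomerase, had 24.9, 11.09 and 48.7 CPM in Fah-/- tumors, against 203, 298 and 322 CPM in adjacent livers (log2 fold change -3.28 ± 0.49, adjusted p = 0.00476). In these 5 genes every tumor was below every adjacent liver, and all calls but that of Hmgcs1 held without any 1 of the 6 libraries. Fdps, of isoprenoid synthesis, had 523, 35.9 and 403 CPM in Fah-/- tumors, against 370.4, 873 and 728 CPM in adjacent livers (log2 fold change -1.04 ± 0.76, adjusted p = 0.381), with tumor replicate 2 alone far below. Srebf2, the transcription factor that drives the pathway, had 59.3, 91.3 and 33.5 CPM in Fah-/- tumors, against 88.4, 76.9 and 81.2 CPM in adjacent livers (log2 fold change -0.42 ± 0.38, adjusted p = 0.473), and the groups overlapped.

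Bile acid genes fell for 11 of 24 and rose for 1, the exporter Abcc4 given above (median log2 fold change -1.48). The count of falls was 6 without tumor replicate 3, adjacent replicate 2 or adjacent replicate 3 and 8 to 11 without any other 1 of the 6 libraries. Cyp7a1, the rate-limiting enzyme, had 18.7, 0.182 and 3.09 CPM in Fah-/- tumors, against 252, 131 and 695 CPM in adjacent livers (log2 fold change -5.62 ± 1.41, adjusted p = 0.0278). Every tumor was far below every adjacent liver, but the fall did not pass without tumor replicate 3 or adjacent replicate 3 (adjusted p up to 0.0851). Cyp8b1, which sets the cholic acid share, had 4.46, 0.182 and 3.42 CPM in Fah-/- tumors, against 156, 504 and 226 CPM in adjacent livers (log2 fold change -6.78 ± 1.40, adjusted p = 0.0137). Cyp27a1, of the alternative route, had 186, 53.1 and 158 CPM in Fah-/- tumors, against 524, 906 and 534 CPM in adjacent livers (log2 fold change -2.30 ± 0.47, adjusted p = 0.0133). Both calls held without any 1 of the 6 libraries, with tumor replicate 2 lowest. Slc27a5, which activates bile acids before conjugation, had 123, 279.5 and 119.7 CPM in Fah-/- tumors, against 847, 1006 and 798 CPM in adjacent livers (log2 fold change -2.34 ± 0.40, adjusted p = 0.00685). Slco2b1, an uptake transporter, had 54.4, 14.7 and 38.3 CPM in Fah-/- tumors, against 241, 209 and 229.6 CPM in adjacent livers (log2 fold change -2.66 ± 0.43, adjusted p = 0.00588). Tumor replicate 2 was the highest tumor for Slc27a5 and the lowest for Slco2b1, and both calls held as well.

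**Figure D3:**
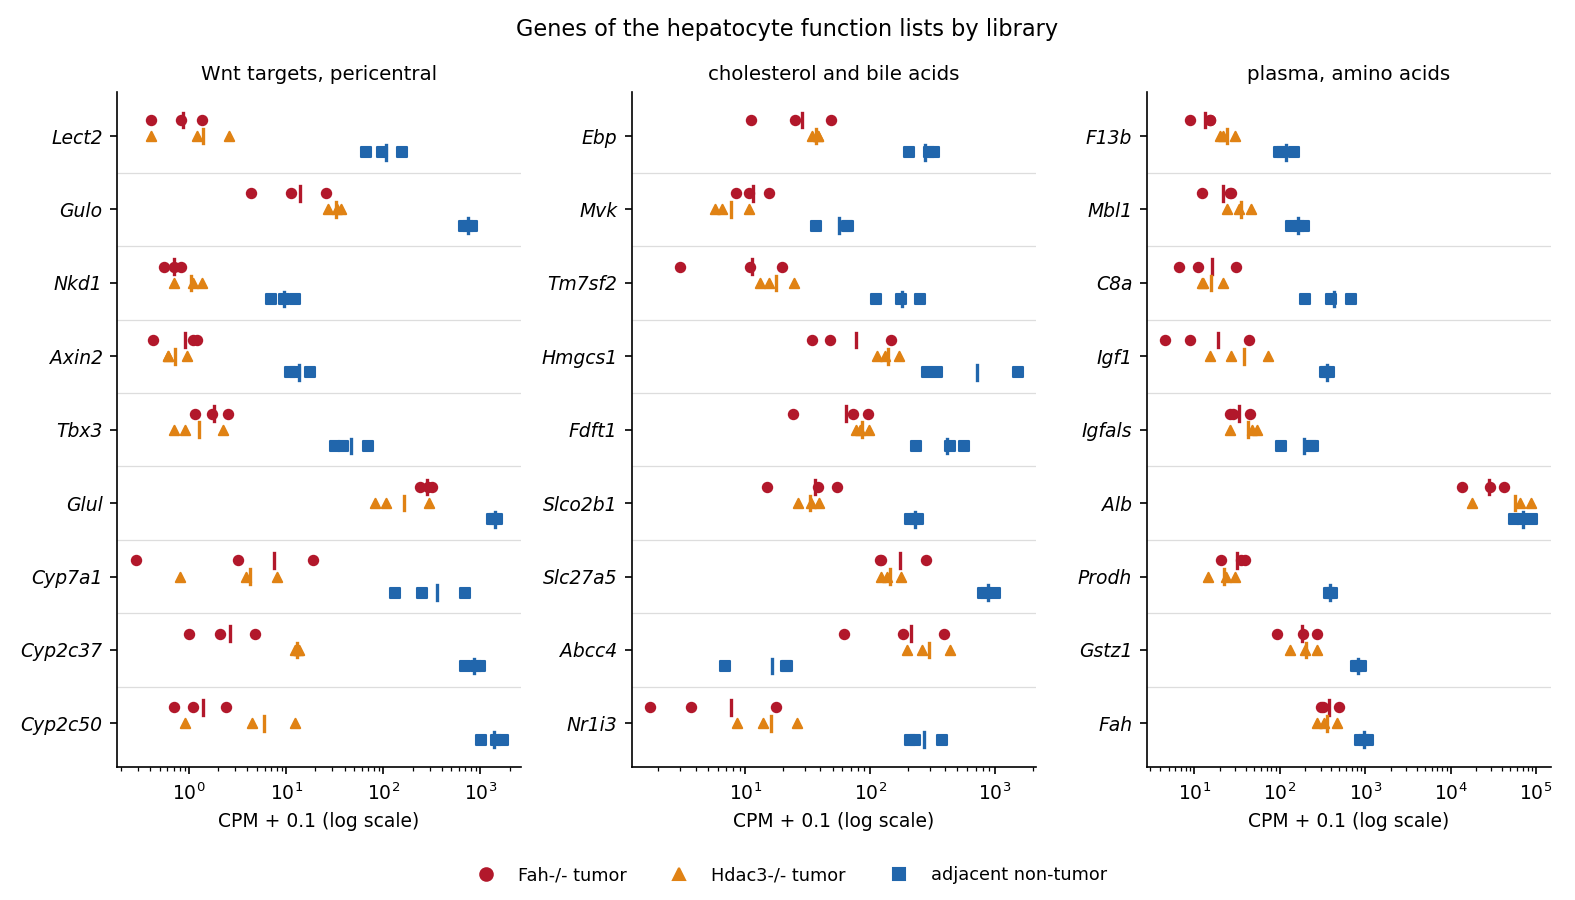
Levels of 27 genes of the Wnt, sterol, bile acid, plasma protein and amino acid lists in 9 libraries. The x axis is CPM with 0.1 added on a log scale, each point is 1 library and each bar a group mean (n = 3 each), with Fah-/- tumors above Hdac3-/- tumors and adjacent livers. Lect2, Gulo, Nkd1, Axin2 and Cyp2c37 are far below the adjacent livers in every tumor, and Abcc4 is above them.

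Complement and coagulation genes fell for 11 of 25 and rose for 0 (median log2 fold change -1.45), and the count of falls was 9 to 12 without any 1 of the 6 libraries. F13b, the carrier subunit of the clot-stabilising factor XIII, had 15.1, 8.82 and 15.2 CPM in Fah-/- tumors, against 97.9, 107 and 147 CPM in adjacent livers (log2 fold change -3.16 ± 0.32, adjusted p = 0.00154). Proc, the anticoagulant protein C, had 184, 96 and 113 CPM in Fah-/- tumors, against 515, 811 and 519.6 CPM in adjacent livers (log2 fold change -2.23 ± 0.35, adjusted p = 0.00546). Mbl1, a mannose-binding lectin, had 25.7, 12.3 and 27 CPM in Fah-/- tumors, against 136, 194 and 166 CPM in adjacent livers (log2 fold change -2.93 ± 0.38, adjusted p = 0.00314). The ranges of tumors and adjacent livers were narrow and apart in these genes. C8a, a part of the membrane attack complex, had 30.8, 11 and 6.43 CPM in Fah-/- tumors, against 195, 689.9 and 398 CPM in adjacent livers (log2 fold change -4.74 ± 0.71, adjusted p = 0.00468). C8b, its partner chain, had 1.11, 0.818 and 1.79 CPM in Fah-/- tumors, against 81.7, 743 and 157 CPM in adjacent livers (log2 fold change -8.02 ± 1.25, adjusted p = 0.00526). C6, another part of that complex, had 7.2, 5.91 and 5.78 CPM in Fah-/- tumors, against 54.4, 417 and 36.1 CPM in adjacent livers (log2 fold change -4.75 ± 0.91, adjusted p = 0.011). Adjacent replicate 2 was the highest library for these 3 complement genes, and without it the log2 fold change of C6 was -2.84, adjusted p = 0.0115. Calls of all 6 genes held without any 1 of the 6 libraries.

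Of 23 tested genes for secreted plasma proteins 5 fell and 0 rose, and the count of falls was 3 without adjacent replicate 2 or adjacent replicate 3 and 4 to 7 without any other 1 of the 6 libraries. Igf1, the circulating growth factor, had 8.82, 4.45 and 43.4 CPM in Fah-/- tumors, against 341, 375 and 349 CPM in adjacent livers (log2 fold change -4.23 ± 0.89, adjusted p = 0.0151). Igfals, which holds it in serum, had 28, 26.2 and 44.6 CPM in Fah-/- tumors, against 244, 233 and 102 CPM in adjacent livers (log2 fold change -2.55 ± 0.43, adjusted p = 0.00685). Both calls held without any 1 of the 6 libraries. Alb, albumin itself, had 28679, 42284 and 13482 CPM in Fah-/- tumors, against 67904, 54581 and 90686 CPM in adjacent livers (log2 fold change -1.34 ± 0.70, adjusted p = 0.217). It was lower in every tumor without passing, and it was at 13482 CPM or more in all 6 libraries, as in liver tissue. Acute phase genes fell for 2 of 17, Apcs and Crp (11.8%, beside 7.08% of all genes tested). The count was 0 without tumor replicate 1, adjacent replicate 1 or adjacent replicate 3, 1 without adjacent replicate 2 and 2 to 3 without any other 1 of the 6 libraries. Saa1, the acute phase protein with the widest range in inflamed liver, had 2.43, 1.36 and 135 CPM in Fah-/- tumors, against 606, 142 and 567 CPM in adjacent livers (log2 fold change -3.24 ± 1.48, adjusted p = 0.162), and each tumor was below each adjacent liver without passing.

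Urea cycle and amino acid breakdown genes fell for 5 of 24 and rose for 1, and the count of falls was 2 without adjacent replicate 3, 3 without tumor replicate 2 or adjacent replicate 2 and 4 to 7 without any other 1 of the 6 libraries. Prodh, the proline dehydrogenase, had 38.7, 34.9 and 20.5 CPM in Fah-/- tumors, against 379.9, 385 and 406 CPM in adjacent livers (log2 fold change -3.64 ± 0.37, adjusted p = 0.00154). Haao, of tryptophan breakdown, had 42.4, 100.1 and 161 CPM in Fah-/- tumors, against 474, 805 and 741 CPM in adjacent livers (log2 fold change -2.73 ± 0.50, adjusted p = 0.00918). Otc, of the urea cycle, had 1.82, 0 and 11.6 CPM in Fah-/- tumors, against 133, 161 and 295 CPM in adjacent livers (log2 fold change -5.43 ± 1.19, adjusted p = 0.0175), a fall that did not pass without adjacent replicate 3 (adjusted p up to 0.0589). Sdsl, a serine dehydratase-like enzyme, was the member that rose, with 27, 35.3 and 46.1 CPM in Fah-/- tumors, against 6.66, 12.9 and 7.86 CPM in adjacent livers (log2 fold change 1.98 ± 0.34, adjusted p = 0.00751). Every tumor was separated from every adjacent liver in these 4 genes.

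Along tyrosine and phenylalanine breakdown, which ends with Fah, 4 of 8 genes fell and 0 rose (median log2 fold change -1.53). The count of falls was 1 without adjacent replicate 2 or adjacent replicate 3, 2 without tumor replicate 1 and 3 to 4 without any other 1 of the 6 libraries. Tat, the aminotransferase that opens tyrosine breakdown, had 1274, 2097 and 1788 CPM in Fah-/- tumors, against 892, 898 and 1179 CPM in adjacent livers (log2 fold change 0.80 ± 0.36, adjusted p = 0.162). It was higher in every tumor without passing. Hpd, the target of nitisinone, the drug that keeps Fah-/- mice alive, had 267, 17.9 and 916 CPM in Fah-/- tumors, against 2548, 3012 and 3806 CPM in adjacent livers (log2 fold change -2.96 ± 1.05, adjusted p = 0.0842). It was lower in every tumor, over a wide range, without passing. Hgd, which follows it, had 276, 279 and 408 CPM in Fah-/- tumors, against 357, 433 and 527 CPM in adjacent livers (log2 fold change -0.45 ± 0.31, adjusted p = 0.341), and the groups overlapped. Gstz1, the isomerase just before Fah, had 188, 92.4 and 269 CPM in Fah-/- tumors, against 796, 774 and 902 CPM in adjacent livers (log2 fold change -2.17 ± 0.44, adjusted p = 0.013), and its call held without any 1 of the 6 libraries. Gstz1 and Fah thus fell, Tat, Hpd and Hgd did not pass, and differences between the steps were not tested.

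Cytochromes and other xenobiotic enzymes fell for 12 of 28 and rose for 2, and the count of falls was 7 without adjacent replicate 3 and 8 to 12 without any other 1 of the 6 libraries. Rises numbered 0 without tumor replicate 2, adjacent replicate 1 or adjacent replicate 3, 1 without tumor replicate 3 or adjacent replicate 2 and 2 without any other 1 of the 6 libraries. Cyp2c37, which hydroxylates arachidonic acid, had 0.912, 2.0 and 4.64 CPM in Fah-/- tumors, against 907, 694 and 998 CPM in adjacent livers (log2 fold change -8.41 ± 0.64, adjusted p = 0.00148). Cyp2c50 had 0.608, 1.0 and 2.28 CPM in Fah-/- tumors, against 1022, 1434 and 1692 CPM in adjacent livers (log2 fold change -10.03 ± 1.11, adjusted p = 0.00199). Cyp2c54 had 0, 0.455 and 0.733 CPM in Fah-/- tumors, against 339, 486 and 543 CPM in adjacent livers (log2 fold change -10.08 ± 0.90, adjusted p = 0.00148). These 3 genes are close relatives, so the counts of each may hold reads of another, but all were near 0 in every tumor. Cyp2a5, a coumarin hydroxylase, was one of the members that rose, with 4249, 22236 and 13003 CPM in Fah-/- tumors, against 3034, 1152 and 3724 CPM in adjacent livers (log2 fold change 2.32 ± 0.68, adjusted p = 0.0471), a rise that did not pass without tumor replicate 2, tumor replicate 3, adjacent replicate 1, adjacent replicate 2 or adjacent replicate 3 (adjusted p up to 0.119). Its close relative Cyp2a4 did not pass, and reads may be shared between them. Car3, carbonic anhydrase 3, abundant in liver, muscle and fat, had 0.709, 0.182 and 3.5 CPM in Fah-/- tumors, against 352, 2188 and 1713 CPM in adjacent livers (log2 fold change -9.89 ± 1.69, adjusted p = 0.00711), and its call held without any 1 of the 6 libraries.

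Major urinary proteins, pheromone carriers made in liver and higher in males, fell for 13 of 17, and the count of falls was 9 to 14 without any 1 of the 6 libraries. Their summed levels were 207, 8.91 and 296 CPM in Fah-/- tumors and 7715, 133206 and 15812 CPM in adjacent livers, highest in adjacent replicate 2, the one with Y-linked transcripts. Mup18 had 0.405, 0.636 and 6.68 CPM in Fah-/- tumors, against 1929, 19753 and 6622 CPM in adjacent livers (log2 fold change -11.82 ± 2.43, adjusted p = 0.0136). Mup16 had 0, 0 and 0 CPM in Fah-/- tumors, against 8.13, 611 and 23 CPM in adjacent livers, at least 2186-fold lower against the floor of 3 counts over the tumor group, and at least 169.6-fold lower without adjacent replicate 2. The copies of this family are nearly identical, so values of single members are uncertain, but no tumor reached the lowest adjacent sum. Serpina1e, a protease inhibitor higher in male mice, had 21, 2.18 and 14.3 CPM in Fah-/- tumors, against 534, 38630 and 978 CPM in adjacent livers (log2 fold change -10.06 ± 1.98, adjusted p = 0.0118). Its log2 fold change was -5.92, adjusted p = 0.0126 without adjacent replicate 2, its highest library. Sult3a1, a sulfotransferase higher in female mice, had 0, 0 and 0.326 CPM in Fah-/- tumors, against 52, 1.71 and 499.7 CPM in adjacent livers (log2 fold change -10.47 ± 2.26, adjusted p = 0.0166). Adjacent replicate 2 was here the lowest of the adjacent livers. Male-biased genes fell for 4 of 12 and female-biased genes for 6 of 15, and 0 rose on either list. The count of female-biased falls was 2 without adjacent replicate 3, 3 without tumor replicate 1, tumor replicate 2 or tumor replicate 3 and 6 to 8 without any other 1 of the 6 libraries. Without adjacent replicate 2 the male-biased median was 0.4, against -4.08 with it, and 3 male-biased genes were called higher and 3 lower. No Fah-/- tumor held Y-linked transcripts, and the part of sex in these values was not tested.

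Core clock genes changed in both directions, with 3 rises and 6 falls among 18, and the count of falls was 2 without adjacent replicate 3, 3 without adjacent replicate 1 or adjacent replicate 2 and 5 to 6 without any other 1 of the 6 libraries. Rises numbered 1 without adjacent replicate 3 and 3 without any other 1 of the 6 libraries. Arntl, the activator also called Bmal1, had 15.8, 20.5 and 8.14 CPM in Fah-/- tumors, against 1.08, 1.6 and 1.34 CPM in adjacent livers (log2 fold change 3.46 ± 0.48, adjusted p = 0.00362). Per3, a gene of the repressing limb, had 1.42, 4.55 and 4.4 CPM in Fah-/- tumors, against 65.2, 36 and 70.2 CPM in adjacent livers (log2 fold change -4.04 ± 0.48, adjusted p = 0.00226). Tef, an output factor, had 42.2, 70.5 and 61.9 CPM in Fah-/- tumors, against 238, 225 and 178 CPM in adjacent livers (log2 fold change -1.88 ± 0.32, adjusted p = 0.00745). All 3 were separated between the groups, and their calls held without any 1 of the 6 libraries. Npas2, an activator that can stand in for Clock, had 5.07, 19.5 and 3.01 CPM in Fah-/- tumors, against 0.294, 0.456 and 0.207 CPM in adjacent livers (log2 fold change 4.81 ± 1.01, adjusted p = 0.0148), and its call did not pass without adjacent replicate 3 (adjusted p up to 0.0691). The labels give no time of day for the collections, and its part in these values was not tested.

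**Figure D4:**
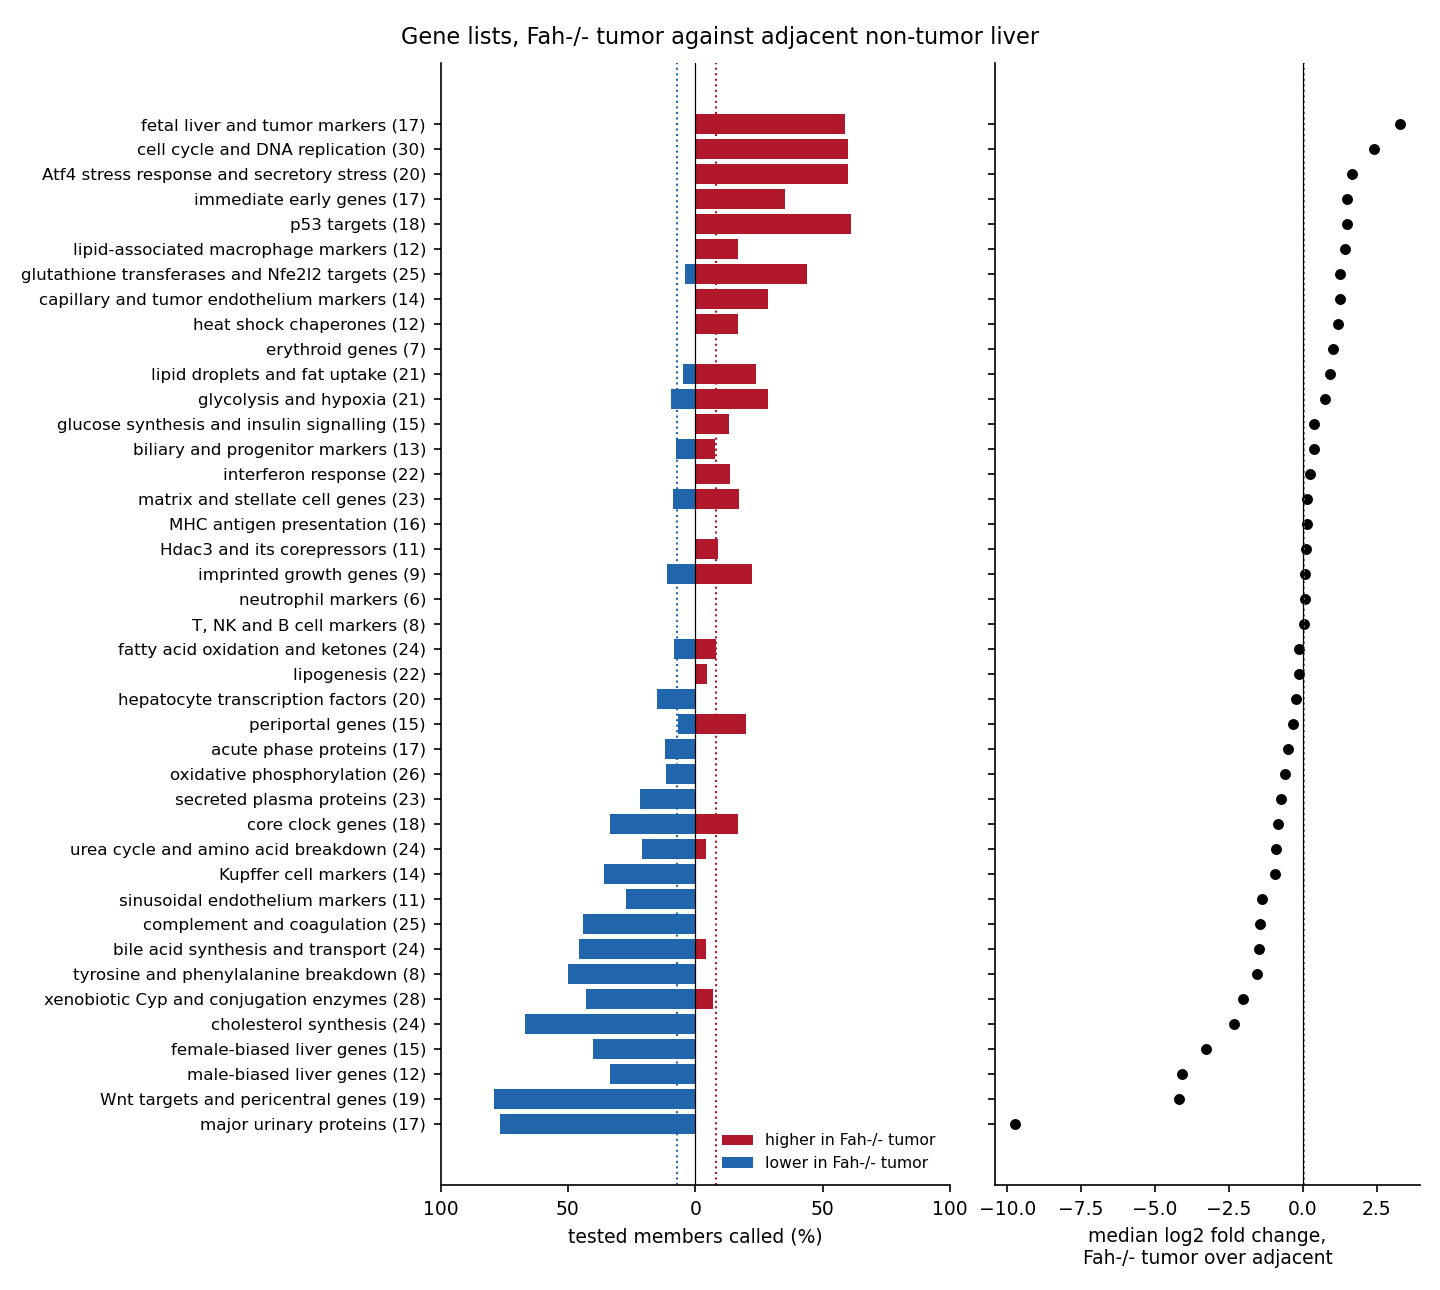
Gene lists with at least 6 tested members, with the number tested in parentheses. The left panel gives the percent of tested members called higher (right of 0) or lower (left of 0) in Fah-/- tumors against adjacent livers, with dotted lines at 8.19% and 7.08%, the shares over all genes, and the right panel the median log2 fold change, with a dotted line at 0.04, the median of all genes. Wnt targets and major urinary proteins have the highest shares called lower, and p53 targets, cell cycle and Atf4 genes those called higher.

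Kupffer cell markers, of resident liver macrophages, fell for 5 of 14 and rose for 0, and the count of falls was 1 without tumor replicate 1, tumor replicate 3, adjacent replicate 1 or adjacent replicate 3, 3 without adjacent replicate 2 and 7 without any other 1 of the 6 libraries. Rises numbered 3 without adjacent replicate 1 and 0 without any other 1 of the 6 libraries. Clec4f, the lectin that defines mouse Kupffer cells, had 1.62, 5.27 and 1.55 CPM in Fah-/- tumors, against 165, 53.4 and 84.7 CPM in adjacent livers (log2 fold change -5.16 ± 0.90, adjusted p = 0.00771), and its call held without any 1 of the 6 libraries. Timd4, a receptor for dying cells on embryo-derived Kupffer cells, had 0.101, 1.0 and 0.163 CPM in Fah-/- tumors, against 22.2, 3.54 and 8.17 CPM in adjacent livers (log2 fold change -4.71 ± 1.16, adjusted p = 0.0256), a fall that did not pass without tumor replicate 1, tumor replicate 3, adjacent replicate 1 or adjacent replicate 3 (adjusted p up to 0.0742). C1qa, a complement component of macrophages in general, had 121, 159 and 172 CPM in Fah-/- tumors, against 185, 45.5 and 72.5 CPM in adjacent livers (log2 fold change 0.58 ± 0.45, adjusted p = 0.415). Clec4f and Timd4 were lower in each tumor than in each adjacent liver, while C1qa overlapped. Summed over 14 markers the levels were 597, 938 and 778 CPM in Fah-/- tumors and 1778, 527 and 759 CPM in adjacent livers, which overlap.

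Markers of lipid-associated macrophages rose for 2 of 12, Cd9 and Lgals3, and the count was 5 without tumor replicate 2 and 2 to 3 without any other 1 of the 6 libraries. Cd9, a tetraspanin found on many cells, had 186, 694 and 295 CPM in Fah-/- tumors, against 38.7, 20.1 and 17.3 CPM in adjacent livers (log2 fold change 3.95 ± 0.55, adjusted p = 0.00373). Lgals3, a galectin of macrophages and stressed epithelia, had 97.9, 202 and 96.2 CPM in Fah-/- tumors, against 21.9, 8.44 and 9.0 CPM in adjacent livers (log2 fold change 3.33 ± 0.51, adjusted p = 0.00488). Both were higher in each tumor, with calls that held without any 1 of the 6 libraries. Trem2, a lipid receptor that defines these macrophages, had 5.27, 0.909 and 3.99 CPM in Fah-/- tumors, against 3.23, 1.6 and 2.69 CPM in adjacent livers (log2 fold change 0.43 ± 0.65, adjusted p = 0.689). Gpnmb, a lysosomal glycoprotein, had 45.8, 2.36 and 35.2 CPM in Fah-/- tumors, against 4.9, 6.61 and 7.45 CPM in adjacent livers (log2 fold change 2.13 ± 1.34, adjusted p = 0.301). Both overlapped between groups. The summed level of all 12 markers was 2115, 1766 and 2123 CPM in Fah-/- tumors and 802, 773 and 671 CPM in adjacent livers. Trem2 and Gpnmb, at 45.8 CPM or less in each of the 6 libraries, were a small part of it. Cd9, found on many cells, gave 694 CPM of it in tumor replicate 2. The part of these macrophages in the rises of Fabp4 and Plin2 was not tested.

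Markers of T, NK and B cells summed to 7.2, 11.5 and 39.1 CPM in Fah-/- tumors and 40.1, 12.7 and 27.2 CPM in adjacent livers. Of 8 tested, 0 were called by edgeR, 1 had an unadjusted p under 0.05 and 1 was called by DESeq2. The count edgeR called lower was 1 without tumor replicate 1, tumor replicate 2 or adjacent replicate 2, 3 without tumor replicate 3 and 0 without any other 1 of the 6 libraries. Neutrophil markers summed to 19.7, 74.4 and 35.3 CPM in Fah-/- tumors and 38.7, 42.2 and 81.4 CPM in adjacent livers. The groups overlapped for both lists. Of 10 fat cell and mesothelial genes 3 were tested and 2 fell, Car3 above and Msln, a surface protein of mesothelium, and the count was 2 to 3 without any 1 of the 6 libraries. Their summed level was 1.22, 0.364 and 4.72 CPM in Fah-/- tumors and 357, 2194 and 1717 CPM in adjacent livers. Car3, which liver also expresses, made up most of the adjacent sums.

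Capillary and tumor endothelium genes rose for 4 of 14, and the count was 0 without adjacent replicate 2 or adjacent replicate 3, 1 without tumor replicate 1 or tumor replicate 3 and 3 to 6 without any other 1 of the 6 libraries. Cd34, a marker of capillary endothelium, had 15.8, 2.36 and 15.6 CPM in Fah-/- tumors, against 3.53, 0.912 and 0.828 CPM in adjacent livers (log2 fold change 2.66 ± 0.76, adjusted p = 0.0424), a rise that did not pass without tumor replicate 1, tumor replicate 3, adjacent replicate 2 or adjacent replicate 3 (adjusted p up to 0.145). Sinusoidal endothelium genes fell for 3 of 11, Rspo3 above among them, and the count was 0 without tumor replicate 1, tumor replicate 2, tumor replicate 3, adjacent replicate 1 or adjacent replicate 3 and 1 without adjacent replicate 2. Clec4g, a sinusoidal lectin, had 2.94, 2.55 and 0.651 CPM in Fah-/- tumors, against 47, 11.2 and 14.8 CPM in adjacent livers (log2 fold change -3.58 ± 0.99, adjusted p = 0.0389), a fall that did not pass with any 1 of the 6 libraries left out (adjusted p up to 0.112). Clec4g did not overlap between groups, while tumor replicate 2 lay within the adjacent range of Cd34. Matrix and stellate cell genes rose for 4 of 23 and fell for 2, and the count of rises was 2 without adjacent replicate 2 or adjacent replicate 3 and 3 to 4 without any other 1 of the 6 libraries. Falls numbered 7 without tumor replicate 3 and 2 to 3 without any other 1 of the 6 libraries. Without tumor replicate 3 the list's median log2 fold change was -0.51, against 0.16 with it. Col4a1, a chain of basement membrane collagen, had 345, 283 and 198 CPM in Fah-/- tumors, against 70.4, 25.4 and 23.3 CPM in adjacent livers (log2 fold change 2.79 ± 0.48, adjusted p = 0.00745). Col4a2, its partner chain, had 208, 169.6 and 109 CPM in Fah-/- tumors, against 34.2, 23.7 and 14.1 CPM in adjacent livers (log2 fold change 2.76 ± 0.39, adjusted p = 0.00405). The chains were higher together in each tumor. Dcn, a small proteoglycan of stellate cells and fibroblasts, had 6.79, 4.09 and 21.2 CPM in Fah-/- tumors, against 137, 62 and 124 CPM in adjacent livers (log2 fold change -3.33 ± 0.60, adjusted p = 0.00849), and its call held without any 1 of the 6 libraries. Lrat, the retinol-esterifying enzyme of quiescent stellate cells, had 0.507, 0.364 and 0.407 CPM in Fah-/- tumors, against 3.33, 3.31 and 11.9 CPM in adjacent livers (log2 fold change -3.83 ± 0.67, adjusted p = 0.00753). Both were lower in each tumor than in each adjacent liver. Col1a1, the fibrillar collagen of scar, had 40.4, 6.64 and 95.5 CPM in Fah-/- tumors, against 11.7, 40.6 and 21.3 CPM in adjacent livers (log2 fold change 0.96 ± 0.78, adjusted p = 0.431), and its log2 fold change was -0.08, adjusted p = 0.953 without tumor replicate 3.

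**Figure D5:**
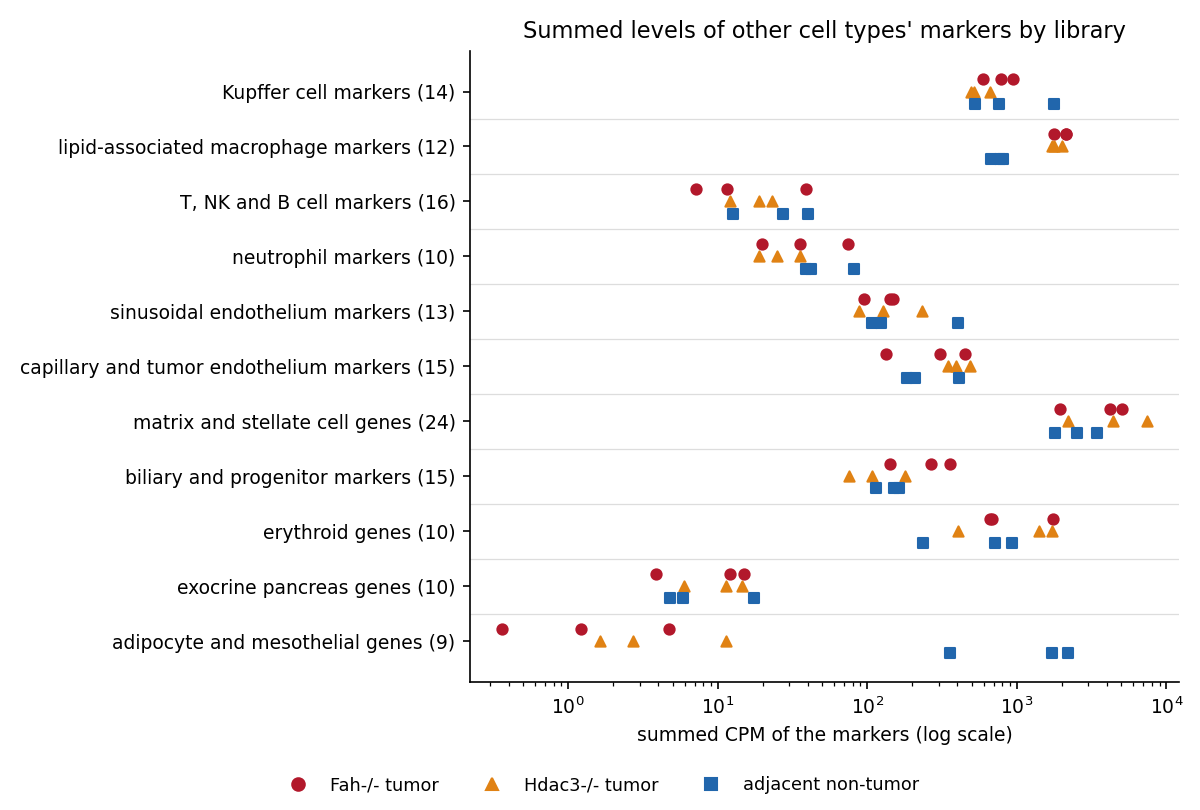
Summed CPM of marker lists of other cell types by library, on a log scale, with the number of markers summed in parentheses. Each point is 1 library, with Fah-/- tumors above Hdac3-/- tumors and adjacent livers. Fah-/- tumors and adjacent livers overlap on all lists drawn except those of adipocyte and mesothelial genes, which Car3 leads in adjacent livers, and of lipid-associated macrophages, where Fah-/- tumors lie at 1766 to 2123 CPM and adjacent livers at 670.8 to 801.7 CPM. Trem2 and Gpnmb of the latter list are a small part of its sum and overlap between these groups.

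Fah-/- tumors were set against Hdac3-/- tumors to test whether the tumor groups differed. With edgeR's quasi-likelihood test 0 of 13187 genes (0%) passed at an adjusted p of 0.05, 912 had an unadjusted p under 0.05, and the smallest adjusted p was 0.671. DESeq2 called 44 genes and limma voom 0, and edgeR called 1 without Fah-/- tumor replicate 3. A p that misses the threshold does not show that the tumors are alike, and the spread was widest among Fah-/- tumors (biological coefficient of variation 0.551, against 0.332 in Hdac3-/- tumors and 0.375 in adjacent livers). Library correlations were 0.832 to 0.977 between the tumor groups and 0.722 to 0.847 between Fah-/- tumors and adjacent livers, over 9 library pairs each. The value of 0.977 is that of Fah-/- tumor replicate 3 with Hdac3-/- tumor replicate 1, the pair that stood out above. The next highest between the tumor groups was 0.935. Gpc3 had 16.4, 570.1 and 68.5 CPM in Fah-/- tumors and 3.47, 8.4 and 1.41 CPM in Hdac3-/- tumors (difference 5.62 ± 1.27 on the log2 scale, adjusted p = 0.671). Afp had 23.7, 2478 and 76.3 CPM in Fah-/- tumors and 54.3, 5.06 and 1.11 CPM in Hdac3-/- tumors (difference 5.41 ± 1.86, adjusted p = 0.671). Gpc3 was higher in each Fah-/- tumor than in each Hdac3-/- tumor without passing, and Hdac3-/- tumor replicate 1 lay inside the Fah-/- range of Afp. Cdkn1a had 269, 79.4 and 102 CPM in Fah-/- tumors and 120.5, 249 and 149 CPM in Hdac3-/- tumors (difference -0.21 ± 0.69, adjusted p = 0.935). Trib3 had 215, 237 and 139 CPM in Fah-/- tumors and 186, 102 and 96.4 CPM in Hdac3-/- tumors (difference 0.62 ± 0.43, adjusted p = 0.696). The tumor groups overlapped for both stress genes. Axin2 had 1.11, 1.0 and 0.326 CPM in Fah-/- tumors and 0.846, 0.506 and 0.503 CPM in Hdac3-/- tumors (difference 0.36 ± 0.51, adjusted p = 0.842), and the groups overlapped. Median log2 differences of the lists between the tumor groups were 0.07 for Wnt and pericentral genes, -0.13 for cholesterol synthesis, 0.02 for p53 targets and 0.68 for the cell cycle, beside 0.02 over all genes. Other lists lay further from 0, with 1.14 for biliary and progenitor markers, -0.77 for matrix and stellate cell genes and -0.74 for sinusoidal endothelium. The lowest was -1.24, for fat cell and mesothelial genes with 3 tested. Unadjusted edgeR p was under 0.05 for 5 of 13 biliary and 5 of 17 fetal and tumor markers.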

How the data were processed

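The deposited tables list, for each library, the authors' expected counts and FPKM values per gene, per the file headers, and HISAT, Bowtie2 and the build mm10 are named in the submitters' processing notes without roles or versions. Per the labels' protocols RNA was extracted with Trizol and libraries were made with an Illumina TruSeq kit from total RNA. The counting tool and its use of strand are not given in the sources used here, so overlapping genes may share reads. Expected counts split reads between near-identical genes by estimate, and 20.1% to 21.3% of listed values were not whole.

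From there, counts were rounded, a gene absent from a table was set to 0, and 13187 genes passed edgeR's filterByExpr over the 9 older libraries (Fah-/- tumor, Hdac3-/- tumor and adjacent liver, 3 each). Groups were fitted together with TMM scaling and edgeR 4.0.16's quasi-likelihood test (R 4.3.3), with Benjamini-Hochberg adjustment over all genes tested. CPM values use the TMM-scaled library sizes. DESeq2 1.42.0 and limma 3.58.1 (voom, and limma-trend on the deposited FPKM with 1 or 0.1 added before log2) were alternatives. The procedure was tested on simulated counts, drawn for all libraries from a shared mean profile with changes set into some genes. They did not copy the libraries that stand apart here, so they do not show how the procedure handles those. Gene IDs were matched to RefSeq annotation of GRCm38.p6, 19573 by ID and 11 by accession, of 19638. Coordinates of genes and promoters are those of that annotation.

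The comparison, its members and the gene lists were chosen with earlier results of these data known. Genes named as the 12 largest rises and falls had to be called, not to overlap between the groups and to average 5 CPM or more in 1 of them. Up to 3 members per list with the smallest p were named without that rule. A set of markers was named whatever their values. Further list members were chosen after their values were seen. Among them are Foxm1, Mdm2, Bax, Bbc3, Atf4, Asns, Cyp2e1, Cyp8b1, Cyp27a1, C8b, C6, Fdft1, Npas2, Nqo1, Otc and Dcn. All of these but Bax, Bbc3 and Asns passed the test, so the choice leans toward called members. Replicates are separate libraries by label, which do not say whether each came from its own animal, so p-values measure the spread between these libraries. Counts limit precision for low genes. Results of some single genes are not reported here, though list counts include them.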

Additional observations from a re-analysis of the deposited data

How the results depend on the processing

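For Fah-/- tumors against adjacent livers, edgeR called 2014 genes. Alternatives that moved this count by over 1.5 times gave 1115 genes with the presence of Y-linked transcripts as a covariate, 4832 with all 26 libraries in 1 fit, 1266 with limma voom and quality weights, 1209 with only the compared groups, 545 without the 2 libraries that hold Y-linked transcripts, and 485 at an adjusted p under 0.01. Without the 2 libraries that hold Y-linked transcripts, falls numbered 11 for Wnt and pericentral genes, 7 for complement and coagulation and 5 for cholesterol synthesis. They numbered 2 for bile acid genes and 0 for tyrosine breakdown. Rises in that fit numbered 5 for cell cycle genes, 5 for Atf4 genes, 4 for p53 targets, 3 for fetal markers and 1 for lipid droplet genes. Leaving out 1 library at a time gave 719 to 1942 genes, lowest without adjacent replicate 3 (719) and adjacent replicate 2 (1022). DESeq2 called 2977 genes, 1994 of them among the 2014. Scaling by library totals moved the median of all genes to 0.26 and the share called higher to 70.5% (1391 higher, 583 lower), against 53.6% with TMM. Adding FPKM pseudocounts of 0.1 and 1 gave medians of 0.22 and 0.15, and shares of 66.4% and 63.1%. Fah-/- tumors and adjacent livers differ by label in genotype and age, so an equal replicate number does not mark the same animal. Deviations of equally numbered libraries from their group means correlated at -0.02 to 0.23 between these groups, and those of unequally numbered ones at -0.22 to 0.11. So few pairs cannot exclude another kind of pairing. With the number as a block 1664 genes were called.

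For Fah-/- tumors against Hdac3-/- tumors, edgeR called 0 genes, DESeq2 44 and the fit with all 26 libraries 76. Leaving out 1 library gave 0 to 1.

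Of 130 genes whose tests are given, under all alternatives 2524 values kept direction and side of the threshold, 275 lost the threshold, 40 gained it and 13 changed sign, none of which was called. Krt19 had a log2 fold change of -1.31 with voom, -0.35 with 0.1 added to FPKM and -2.28 without tumor replicate 2. Col1a1 had -0.08 without tumor replicate 3, and -0.07 without that library and Hdac3-/- tumor replicate 1, an omission chosen after seeing the data. Gstp1 had -0.12 without tumor replicate 1, -0.42 without adjacent replicate 1 and -0.46 without adjacent replicate 3. Trem2 had -0.03 without tumor replicate 1, and Bbc3 -0.07 without adjacent replicate 1. Over all single omissions Krt19 ranged from -2.28 to 2.23, Col1a1 from -0.08 to 1.53, Gstp1 from -0.46 to 2.36, Trem2 from -0.03 to 0.88 and Bbc3 from -0.07 to 0.52. Hnf4a had 0.01 with library totals, and 0.0 with either FPKM pseudocount. The causes were not tested. Of 44 list medians, 408 values under all alternatives moved by less than the spread between replicates and 32 by more.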
